A study of Mus musculus with 17 samples.

Results

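Pancreatic stellate cells are the mesenchymal cells of the pancreas that can turn into fibroblasts around a tumour. The comparison described here set 4 libraries of stellate cells kept in tumour organoid conditioned medium with the ERBB inhibitor neratinib against 4 libraries of stellate cells treated with TGF-beta, so it covered 8 of the 17 RNA sequencing libraries of the series. All genes were compared, with the cell line as a covariate. The members are these 8 libraries, grouped by their labels. The pair was picked as the one furthest apart in fibroblast state, with earlier results of these data known. Its distance therefore describes the choice and is no independent result. Of the 6 pairs among the 4 groups of the series, this pair lay furthest apart, with a root mean square difference of 1.00 on the log2 scale over all genes tested, against 0.559 to 0.948 for the other pairs.

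The cells were wild-type mouse stellate cells of C57BL/6J origin (lines PSC4 and PSC5), embedded in Matrigel, a basement membrane extract that sets as a gel, and collected after 4 days of treatment. The first group received medium conditioned by pancreatic tumour organoids (CM) together with 300 nM neratinib, a small molecule that blocks the kinases of the EGF receptor family, and is called the neratinib group here. The second received 20 ng/mL TGF-beta without conditioned medium or neratinib named in its labels. Each group held 2 libraries per line, at passages 23 and 24 (PSC4) and 27 and 28 (PSC5) in the neratinib group and at passages 24 and 25 (PSC4) and 27 and 28 (PSC5) in the TGF-beta group. The labels mark the conditioned medium of replicate 1 as T8 and that of replicate 2 as T6 in both lines, without saying what these codes stand for. Libraries in CM alone (4) and in control medium (5) served as reference levels. The 2 groups differ in the medium, the inhibitor and the growth factor at once, and the effects of these cannot be told apart from this pair alone. The replicates were passages of 2 lines, and nothing in the labels says that they came from separate animals, so the p-values measure the spread between these cultures.

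TGF-beta binds receptor kinases that pass the signal to SMAD proteins, and it is known for driving stellate cells towards myofibroblasts, contractile cells that lay down collagen. Media from tumour cells carry cytokines of the IL-1 and IL-6 type, which act through NF-kB and STAT3 and are known for driving the same cells towards an inflammatory fibroblast state that secretes chemokines, colony-stimulating factors and acute phase proteins. ERBB receptors are activated by ligands of the EGF family such as amphiregulin and epiregulin and signal through the ERK and AKT kinases.

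Expected counts per gene were used, and levels are given as CPM, counts scaled to library size with TMM factors. CPM is not scaled to gene length, so levels are compared between libraries and not between genes. Library totals lay between 22168953 and 25967713 counts in the neratinib group and between 24318973 and 29208090 in the TGF-beta group. A count of 3 in a library, the floor used for folds, corresponded to 0.103 to 0.135 CPM. The biological coefficient of variation was 19.8%. Stellate and fibroblast markers were high in every library: the summed level of 11 such genes, among them Vim, Dcn and Col1a2, was 4665 to 6573 CPM in the neratinib group and 6635 to 9616 CPM in the TGF-beta group. Acinar markers summed to 5.06 to 10.6 CPM over both groups. Endothelial markers summed to 6.10 to 8.84 CPM in the neratinib group and 9.03 to 15.6 CPM in the TGF-beta group. Of 6 tested, 4 were called lower, including Emcn (-4.24, SE 1.19) and Erg (-4.12, SE 0.88), and none higher. Over all genes tested 20.9% were called lower. A list of 6 Schwann cell genes summed to 23.6 to 42.1 CPM in the neratinib group and 261 to 320 CPM in the TGF-beta group, where Sox10 and Ncam1 were called higher. The neratinib library labelled PSC4 replicate 1 lay with the PSC5 libraries on the third principal component (1.76, against -56.8 for PSC4 replicate 2 and -2.28 and -3.60 for PSC5), as did the CM and control libraries labelled PSC4 replicate 1, and it was the farthest out of the 4 neratinib libraries on the second (-84.1, against -46.9 to -17.2). Epithelial transcripts, which a stellate cell line should lack, differed widely between the neratinib libraries and are given further below.

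In the following, the 4 values of the neratinib group are in the order PSC4 replicate 1, PSC4 replicate 2, PSC5 replicate 1 and PSC5 replicate 2, and the 4 values of the TGF-beta group in the order PSC4 replicate 2, PSC4 replicate 3, PSC5 replicate 1 and PSC5 replicate 2. Log2 fold changes are those of the neratinib group minus the TGF-beta group, from edgeR's quasi-likelihood test, and genes with a Benjamini-Hochberg adjusted p under 0.05 over all 13923 genes tested are called. Values in parentheses with an SE are log2 fold changes. The SE is the size of the log2 fold change divided by the square root of the test's F statistic. It is therefore tied to the p-value and is no separate estimate of error. Gene positions are those of the GENCODE annotation of GRCm38. List counts are over the members that passed the filter on low counts, which a gene high in a single group also passes.

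The neratinib group stood apart from the TGF-beta group in 6123 genes, 44.0% of those tested. Of these, 3217 were higher in the neratinib group (23.1% of the genes tested) and 2906 lower (20.9%). The changes were uneven in size. A change of at least 1 on the log2 scale was found in 1897 called genes (13.6% of those tested), 843 higher and 1054 lower, and a change of at least 3 in 453, of which 214 were higher and 239 lower. The median log2 fold change over all genes tested was 0.026 and the median size of a change was 0.31. The levels of the groups did not overlap for 4172 genes (30.0%), and 65.9% of the called genes were of this kind. Without the libraries labelled PSC4 replicate 1 there were 6626 called genes, and without the 2 neratinib libraries in T6 medium 5039, a setting chosen after seeing the data.

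**Figure D1:**
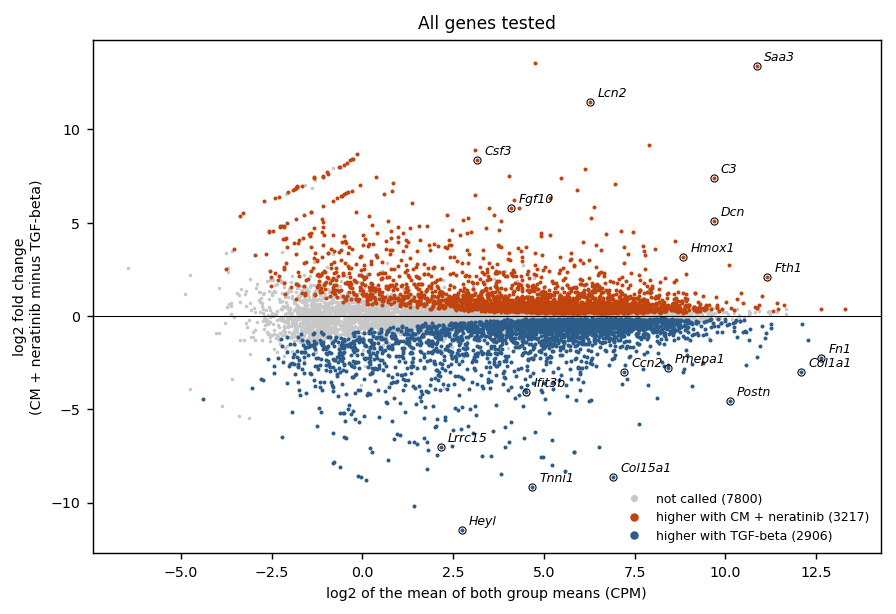
Log2 fold change of the neratinib group minus the TGF-beta group (y axis) against the log2 mean CPM of both groups (x axis) for the 13923 genes tested. Each point is a gene, coloured by whether it was called higher (3217), called lower (2906) or not called, and a few genes are ringed and labelled; among the genes named in the text the changes run from Saa3 at 13.39 to Heyl at -11.48.

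Saa3, Lcn2 and Hp, which encode secreted acute phase proteins, led the genes higher in the neratinib group. Saa3, a serum amyloid A protein made outside the liver (ENSMUSG00000040026, chromosome 7, 46711998 to 46715700), stood at 2169, 4569.8, 7069.8 and 1179 CPM in the neratinib libraries and at 0.827, 0.433, 0.043 and 0.203 CPM in the TGF-beta libraries. The lowest neratinib library was far above the highest TGF-beta library, and the log2 fold change was 13.39 (SE 1.26, adjusted p = 1.37e-06). Lcn2, the siderophore-binding protein lipocalin 2 (ENSMUSG00000026822, chromosome 2, 32384633 to 32388252), had 152, 145, 217 and 104 CPM against 0, 0.0361, 0.129 and 0.0407 CPM. The TGF-beta libraries were all at the floor of 3 counts or fewer for Lcn2, so it was at least 1309-fold higher in the neratinib group (adjusted p = 1.16e-07). Hp, which encodes haptoglobin, a haemoglobin-binding plasma protein, had 149, 759, 813 and 163 CPM against 1.95, 1.59, 0.129 and 0.0814 CPM, and the groups did not overlap (log2 fold change 9.19, SE 1.14, adjusted p = 1.82e-05). PSC4 replicate 2 and PSC5 replicate 1 were the higher neratinib libraries for Saa3 and Hp, and PSC5 replicate 1 was the highest for Lcn2.

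The granulocyte growth factor Csf3 and 2 chemokines that bind CXCR2 were among the 12 largest rises. Csf3 had 27.6, 13.1, 20.5 and 10.3 CPM in the neratinib group and 0.0751, 0, 0.086 and 0.0407 CPM in the TGF-beta group, at least 152-fold higher (adjusted p = 3.39e-07). Cxcl5 had 79.2, 89.5, 304 and 86.9 CPM against 0.639, 0.578, 1.03 and 0 CPM (log2 fold change 7.88, SE 0.64, adjusted p = 3.56e-07), and Cxcl1 144, 55.9, 206 and 67.4 CPM against 1.28, 0.975, 1.72 and 0.325 CPM (6.77, SE 0.56, adjusted p = 3.74e-07). Neither chemokine overlapped between the groups, and PSC5 replicate 1 was the highest neratinib library for both. The central complement component C3 stood at 502, 1455, 3976 and 584 CPM against 15.4, 6.86, 10.4 and 4.39 CPM (7.38, SE 0.71, adjusted p = 1.66e-06). The collagenase Mmp13 had 88.5, 123, 35.9 and 36.9 CPM against 1.99, 1.34, 0.344 and 0.122 CPM (6.30, SE 0.52, adjusted p = 4.21e-07). The remaining rises were those of the keratin Krt7 (at least 144-fold higher), the actin-binding adaptor Sorbs2 (7.48), the phosphate hormone Fgf23 (7.39) and the prolactin family gene Prl2c2 (6.49). Krt7 followed the epithelial transcripts: it had 0.17, 18.2, 9.51 and 40.3 CPM in the neratinib libraries, next to nothing in PSC4 replicate 1.

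Heyl, Tnni1 and Col15a1 led the other direction. Heyl, a Notch-induced transcriptional repressor (ENSMUSG00000032744, chromosome 4, 123233556 to 123249875), had 16.3, 16.8, 7.35 and 12.6 CPM in the TGF-beta libraries and not a single count in the 4 neratinib libraries, at least 104-fold lower (adjusted p = 8.39e-08). The slow skeletal troponin I gene Tnni1 (ENSMUSG00000026418, chromosome 1, 135779434 to 135810989) stood at 0.17, 0, 0 and 0.183 CPM in the neratinib group against 49.2, 56.5, 46 and 53.5 CPM in the TGF-beta group, where the 4 libraries were close to each other (-9.16, SE 0.43, adjusted p = 3.17e-09). Col15a1, a collagen of the basement membrane zone (ENSMUSG00000028339, chromosome 4, 47208161 to 47313167), had 0.298, 0.506, 0.778 and 0.275 CPM against 365, 488, 63.8 and 41.3 CPM (-8.63, SE 0.73, adjusted p = 4.74e-07). In the TGF-beta group both PSC4 libraries were far higher for Col15a1 than both PSC5 libraries, and the lowest of them was still above every neratinib library.

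The other large falls were in Ctsw, which encodes cathepsin W (at least 219-fold lower), Piezo2, a mechanically gated ion channel (-8.33, SE 0.28), Ace, the angiotensin-converting enzyme (-8.02, SE 0.76), Cmklr1, the chemerin receptor (-7.58, SE 0.77), Add2, which encodes beta-adducin of the membrane skeleton (-7.57, SE 0.27), Greb1 (-7.53, SE 0.46), Spock3, a proteoglycan (-7.50, SE 1.65), Plxna4, a semaphorin receptor (-7.31, SE 0.49), and C1qtnf3, a secreted C1q-like protein (-7.27, SE 0.40). Ace had 0.0851, 0.428, 0.346 and 0.137 CPM against 111, 135, 24.3 and 26.5 CPM, and Piezo2 0.17, 0.195, 0.476 and 0.321 CPM against 95.7, 120.4, 84 and 79.4 CPM, with no overlap in either gene. Spock3 was uneven within the TGF-beta group, with 0.676, 0.433, 55.9 and 35.9 CPM, low in PSC4 and high in PSC5.

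Control and CM libraries give reference levels for these genes. Control cells lay between the groups for Saa3, which averaged 52.3 ± 55.7 CPM in control medium (SD, n = 5) and 2947 ± 1563 CPM in CM (SD, n = 4). C3 averaged 557 ± 75.7 and 2416 ± 959 CPM in the same groups. Among the falls, control and CM means were far below the TGF-beta libraries: Tnni1 averaged 0.109 CPM in control medium and 0.106 CPM in CM, Heyl 0.015 and 0.00882 CPM, and Piezo2 0.225 and 0.411 CPM. The neratinib comparison with CM and the comparison with TGF-beta share the neratinib libraries, so their values are set side by side only.

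**Figure D2:**
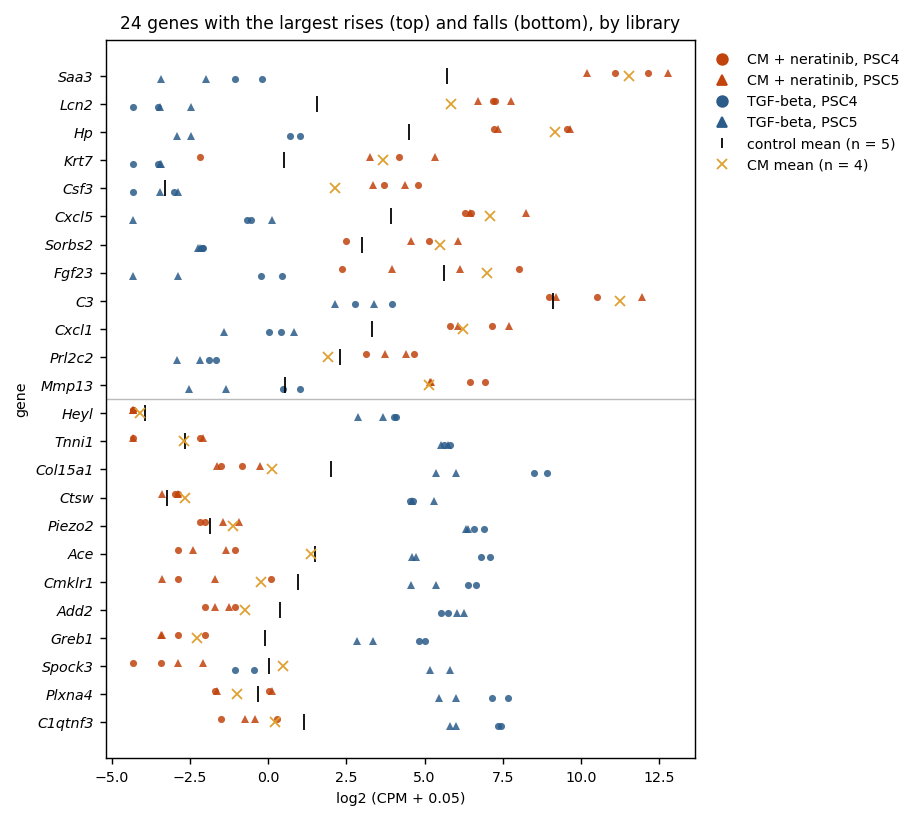
Level of the 24 genes with the largest rises (top) and falls (bottom) as log2 (CPM + 0.05) on the x axis, one row per gene. Points are libraries of the neratinib group and the TGF-beta group (circles PSC4, triangles PSC5), the bar is the mean of the 5 control libraries and the cross the mean of the 4 CM libraries; the neratinib and TGF-beta points overlap in none of the rows.

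Promoter sequences of the first 3 genes in each direction with an entry in the table are shown because these genes moved the farthest together, with Cxcl1 and Ifit1 added after their values were seen. They are the 250 bases before the annotated start from RefSeq (GRCm38.p6), 5′ to 3′ on the gene's strand, and capitals mark matches to any of 10 motifs searched on both strands. The regions were chr7:46715677-46715926 (minus strand) for Saa3, chr2:32387740-32387989 (minus strand) for Lcn2, chr15:101412153-101412402 (plus strand) for Krt7, chr1:135799171-135799420 (plus strand) for Tnni1, chr4:47207762-47208011 (plus strand) for Col15a1, chr11:105967698-105967947 (plus strand) for Ace, chr5:90890995-90891244 (plus strand) for Cxcl1 and chr19:34640639-34640888 (plus strand) for Ifit1. For Tnni1 and Ace the table holds 2 starts each, and 1 is shown.
Saa3: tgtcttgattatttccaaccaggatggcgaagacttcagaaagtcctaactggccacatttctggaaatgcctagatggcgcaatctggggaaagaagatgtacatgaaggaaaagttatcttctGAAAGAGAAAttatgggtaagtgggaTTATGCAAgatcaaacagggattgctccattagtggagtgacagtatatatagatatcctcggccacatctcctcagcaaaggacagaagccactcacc
Lcn2: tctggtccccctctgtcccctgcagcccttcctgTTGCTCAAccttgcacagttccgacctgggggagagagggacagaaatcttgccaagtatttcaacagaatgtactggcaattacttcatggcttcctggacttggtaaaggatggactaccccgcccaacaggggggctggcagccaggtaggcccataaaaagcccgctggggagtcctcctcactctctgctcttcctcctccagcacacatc
Krt7: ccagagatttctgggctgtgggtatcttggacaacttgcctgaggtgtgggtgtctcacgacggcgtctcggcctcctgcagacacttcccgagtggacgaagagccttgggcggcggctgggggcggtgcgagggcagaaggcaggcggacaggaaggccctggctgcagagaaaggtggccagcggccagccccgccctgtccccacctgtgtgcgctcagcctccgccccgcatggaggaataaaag
Tnni1: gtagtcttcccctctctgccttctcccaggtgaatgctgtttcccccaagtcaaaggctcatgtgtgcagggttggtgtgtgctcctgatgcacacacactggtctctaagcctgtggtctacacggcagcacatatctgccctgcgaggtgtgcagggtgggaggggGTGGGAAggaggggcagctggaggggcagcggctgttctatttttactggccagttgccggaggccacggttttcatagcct
Col15a1: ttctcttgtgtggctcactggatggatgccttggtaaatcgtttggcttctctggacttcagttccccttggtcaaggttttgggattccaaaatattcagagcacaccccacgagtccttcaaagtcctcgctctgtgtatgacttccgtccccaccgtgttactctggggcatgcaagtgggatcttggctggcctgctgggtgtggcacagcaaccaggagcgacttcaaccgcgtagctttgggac
Ace: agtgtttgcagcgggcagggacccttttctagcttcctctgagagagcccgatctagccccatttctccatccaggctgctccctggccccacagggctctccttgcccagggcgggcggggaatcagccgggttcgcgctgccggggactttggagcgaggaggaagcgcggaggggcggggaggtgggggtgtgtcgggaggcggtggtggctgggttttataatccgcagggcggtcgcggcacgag
Cxcl1: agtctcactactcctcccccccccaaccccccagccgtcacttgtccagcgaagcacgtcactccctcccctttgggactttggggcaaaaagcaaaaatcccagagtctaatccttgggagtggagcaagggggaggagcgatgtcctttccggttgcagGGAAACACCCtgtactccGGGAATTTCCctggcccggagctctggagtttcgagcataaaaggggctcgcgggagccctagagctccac
Ifit1: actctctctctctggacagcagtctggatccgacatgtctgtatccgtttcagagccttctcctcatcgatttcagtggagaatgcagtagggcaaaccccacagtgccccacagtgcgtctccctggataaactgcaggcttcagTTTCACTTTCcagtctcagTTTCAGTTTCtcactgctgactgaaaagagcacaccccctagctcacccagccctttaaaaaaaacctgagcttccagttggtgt
The motifs were AP-1 (TGANTCA), NF-kB, C/EBP (TTNNGCAA), STAT (TTCNNNGAA), SMAD (GTCTGNC), TEAD (GGAATG), RBPJ (GTGGGAA), the interferon-stimulated response element, E2F (TTCCCGCC) and the CArG box. The capitals in Saa3 are a response-element match at -125 and a C/EBP match at -99 from the start, those in Lcn2 a C/EBP match at -216, those in Tnni1 an RBPJ match at -82, those in Cxcl1 NF-kB matches at -89 and -71, and those in Ifit1 response-element matches at -104 and -85. The windows shown for Krt7, Col15a1 and Ace hold none of these letters.

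Over gene sets, the C/EBP letters were in 20.5% of the 151 promoters found for the 214 genes called higher by at least 3, in 6.92% of the 159 promoters found for the 239 genes called lower by at least 3, and in 9.55% of all 27025 promoters of the table. Among promoters of genes tested the C/EBP share was 7.23%, and in the acute phase list 7 of 11 promoters held the letters. NF-kB letters were in 6.62% of the promoters of the higher set, 0.629% of the lower set and 378 of all 27025 promoters, and in 5 of 17 chemokine promoters. Among promoters of genes tested the NF-kB share was 1.465%. SMAD letters were in 17.9% of the higher and 20.8% of the lower set, against 12.5% of all and 13.1% of those of genes tested. AP-1 letters were in 13.9% of the higher and 10.1% of the lower set, against 4.40% of those of genes tested. A match describes the letters and is no binding site. The transcription factor genes Cebpb and Cebpd were themselves higher in the neratinib group, by 1.99 (SE 0.20, adjusted p = 2.02e-06) and 2.61 (SE 0.39, adjusted p = 9.45e-05), whereas Cebpa was lower (-2.77, SE 0.53, adjusted p = 0.000708).

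Genes of TGF-beta signalling itself were mostly lower in the neratinib group. Of 21 ligands, receptors, activators and feedback genes tested, 11 were lower and 5 higher, with a median log2 fold change of -0.57, against 0.026 over all genes. All 3 ligand genes fell: Tgfb1 to 70.4, 80.0, 80.8 and 49.9 CPM from 183, 215, 115 and 170.0 CPM (-1.27, SE 0.19, adjusted p = 0.000117), with Tgfb2 (-1.65, SE 0.32) and Tgfb3 (-2.76, SE 0.29) beside it. The groups did not overlap for any of the 3. Pmepa1, a SMAD-induced feedback inhibitor, had 64.7, 94.1, 121 and 61.3 CPM against 589.6, 796, 411 and 576 CPM (-2.78, SE 0.26, adjusted p = 1.11e-06). Skil, a SMAD corepressor, fell by 1.36 (SE 0.18) and the inhibitory SMAD gene Smad7 fell by 0.60 (SE 0.14).

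The receptor genes did not move in one direction. Tgfbr2 was lower (-0.98, SE 0.20), whereas Tgfbr1 (0.92, SE 0.22) and the coreceptor gene Tgfbr3 (1.91, SE 0.20) were higher. Smad3 rose (0.66, SE 0.11), and Smad2 (-0.071, SE 0.068) and Smad4 (0.017, SE 0.058) did not pass the test. Of 18 BMP, activin and ID genes 4 were higher and 4 lower, a share near the 44.0% called over all genes. With the replicate number as a block 7 were higher. The targets Id1 (1.52, SE 0.24) and Id3 (1.54, SE 0.29) and the antagonist Grem1 (1.05, SE 0.18) rose, while the activin subunit gene Inhba (-1.05, SE 0.20) and the activin antagonist Fst (-2.01, SE 0.48) fell.

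Contractile genes were lower in the neratinib group. Of 16 genes of the smooth muscle type, 10 were lower and none higher (median -0.71). Acta2, alpha smooth muscle actin, had 68.5, 74.8, 152 and 205 CPM in the neratinib group and 308, 341, 439 and 365 CPM in the TGF-beta group (-1.61, SE 0.31, adjusted p = 0.000768). The groups did not overlap, but the control libraries (249.6 to 432 CPM) were within or near the TGF-beta range. Tagln (-1.53, SE 0.31), Cnn1 (-1.96, SE 0.32) and Actg2 (-2.25, SE 0.32) fell likewise, and Myh11 (1.08, SE 0.51), Des (0.42, SE 0.46) and Mylk (0.39, SE 0.45) were not called. Of 8 striated muscle genes tested, Tnni1 and the cardiac troponin T gene Tnnt2 were lower and Acta1 and Cox6a2 higher, where 44.0% of all genes were called. Tnnt2 had 0.213, 0.195, 0.389 and 0.412 CPM against 30.1, 31.2, 31.3 and 38.6 CPM (-6.77, SE 0.35, adjusted p = 6.1e-09).

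Among lists with at least 8 members tested, the collagen chains had the lowest median. Of 29 chains tested, 24 were lower in the neratinib group and 2 higher, with a median of -2.19. Col1a1, a chain of the main fibrillar collagen, had 422, 1045, 1671 and 793 CPM against 8248, 7027, 10485 and 5244 CPM (-3.01, SE 0.32, adjusted p = 4.72e-06). The lowest TGF-beta library was above the highest neratinib library, and control (1751 ± 323 CPM, SD, n = 5) and CM (1534 ± 195 CPM, SD, n = 4) means were below every TGF-beta library. The control mean was above all 4 neratinib libraries and the CM mean above 3 of them. Col1a2 (-2.65, SE 0.25), Col3a1 (-2.19, SE 0.42), Col5a1 (-2.59, SE 0.22) and Col6a3 (-3.75, SE 0.47) fell as well, and Col3a1 overlapped because PSC5 replicate 2 of the TGF-beta group had only 858 CPM. Col7a1 of anchoring fibrils had 4.26, 2.88, 6.53 and 4.95 CPM against 69.6, 54.3, 170.0 and 156 CPM (-4.50, SE 0.34, adjusted p = 1.82e-07). Col10a1, a collagen of hypertrophic cartilage, fell by 6.07 (SE 0.93), with 23.9, 25.7, 1.2 and 0.732 CPM in the TGF-beta libraries, high in PSC4 and low in PSC5.

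The 2 chains that rose were Col11a2, with 38.4, 16.6, 10.5 and 21 CPM against 5.49, 4.91, 2.36 and 3.34 CPM (2.43, SE 0.27, adjusted p = 6.55e-06), and Col4a6 (1.70, SE 0.36, adjusted p = 0.00162). Col11a2 was also higher than in CM alone, by 3.51 (SE 0.29, adjusted p = 8.61e-06). The chains Col4a1 (-0.80, SE 0.25) and Col4a2 (-0.88, SE 0.28) of the basement membrane fell too and overlapped between the groups. Their calls were lost without PSC4 replicate 1 of the neratinib group (-0.67, adjusted p = 0.0631 and -0.70, adjusted p = 0.0659), without PSC5 replicate 2 of that group (-0.66, adjusted p = 0.0582 and -0.73, adjusted p = 0.059) and without PSC4 replicate 3 of the TGF-beta group (-0.61, adjusted p = 0.0712 and -0.73, adjusted p = 0.0646). Of 23 enzymes that hydroxylate, process or crosslink collagen, 14 were lower and 1 higher (median -0.64). Plod2, a lysyl hydroxylase, fell by 0.83 (SE 0.18) and the collagen chaperone gene Serpinh1 fell by 0.45 (SE 0.093). Crtap rose (0.34, SE 0.099). Of 22 chaperones and transport genes of the secretory route, 13 were lower and 1 higher (median -0.21), or 3 higher with the replicate number as a block. Those lower included Creb3l1, a transcription factor of secretory load (-1.42, SE 0.29), and the COPII coat gene Sec23a (-1.11, SE 0.16).

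Most adhesive and elastic matrix glycoproteins fell. Of 21 tested, 17 were lower and 2 higher (median -1.16), and 11 were lower with only the compared groups in the model. Fn1, fibronectin, had 1469.6, 1832, 3332 and 2460.1 CPM against 10325, 9087, 13794 and 8597 CPM (-2.24, SE 0.19, adjusted p = 4.74e-07) with no overlap. Postn, periostin, had 3.36, 156, 171 and 9.81 CPM against 2581, 2418, 2410.4 and 1126 CPM (-4.58, SE 1.00, adjusted p = 0.00187), and its neratinib libraries were low in PSC4 replicate 1 and PSC5 replicate 2. Tnc (-1.15, SE 0.28), Fbn1 (-2.62, SE 0.18) and Comp (-4.65, SE 0.70) fell. Tnxb, tenascin X, rose from 2.25, 2.06, 1.59 and 0.488 CPM with TGF-beta to 13.8, 31.3, 12.6 and 16.4 CPM (3.56, SE 0.37, adjusted p = 3.37e-06). Without the T6 neratinib libraries 12 of the 21 were lower.

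Decorin rose. Dcn, a small proteoglycan that binds collagen fibrils and TGF-beta, had 1989, 1238, 2203 and 901 CPM in the neratinib group against 27.9, 17.7, 110.2 and 46.1 CPM in the TGF-beta group (5.12, SE 0.50, adjusted p = 1.82e-06). Control libraries averaged 181 ± 39.6 CPM (SD, n = 5) and CM libraries 1537 ± 573 CPM (SD, n = 4), and neratinib against CM was not called (0.07, SE 0.41, adjusted p = 0.925). Fmod, fibromodulin, a relative of decorin, went the opposite way, with 0, 2.8, 0.735 and 0.55 CPM against 308, 368, 32 and 23.9 CPM (-7.01, SE 0.84, adjusted p = 1.31e-05). Bgn (-1.30, SE 0.22), Aspn and Omd were lower too, and Lum (0.51, SE 0.76) was not called. Over 11 proteoglycans 4 were lower and 1 higher, a share near the 44.0% called over all genes. With only the compared groups in the model 2 were lower and 1 higher, and the median went from -0.60 to 0.015.

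Matrix protease genes moved in both directions. Of 21 metalloproteinase, ADAMTS and inhibitor genes, 10 were higher and 5 lower (median 0.52), where 23.1% of all genes were higher and 20.9% lower. The stromelysin gene Mmp3 had 121, 330.1, 184 and 168 CPM against 10.5, 7.48, 12 and 7.53 CPM (4.41, SE 0.30, adjusted p = 6.67e-08), and Adamts5 (1.65, SE 0.31) and Adamts9 (2.29, SE 0.41) rose. The gelatinase gene Mmp2 (-1.04, SE 0.23), the inhibitor gene Timp3 (-2.82, SE 0.43) and Adamts16 (-6.27, SE 0.69) fell. Of 14 surface markers of fibroblast states 6 were lower and 3 higher (median -0.36), where 20.9% of all genes were lower and 23.1% higher. Lrrc15, a marker of TGF-beta-driven myofibroblasts, had 10.2, 11.7, 6.49 and 7.04 CPM with TGF-beta and at most 0.117 CPM in a neratinib library (-7.02, SE 0.50, adjusted p = 8.65e-08), and Ly6d (-6.09, SE 1.01), Cd248 (-2.26, SE 0.32), Fap (-1.98, SE 0.43), Pdgfrb (-1.01, SE 0.35) and Ly6e (-0.70, SE 0.20) fell too. Ly6a (1.67, SE 0.31), Ly6c1 (1.33, SE 0.34) and Pdpn (1.91, SE 0.20) rose. The call for Pdgfrb was lost without PSC4 replicate 1 (-0.70, adjusted p = 0.0572) or PSC5 replicate 2 (-0.85, adjusted p = 0.0842) of the neratinib group. It was also lost without PSC4 replicate 2 (-0.96, adjusted p = 0.065) or PSC4 replicate 3 (-0.92, adjusted p = 0.0716) of the TGF-beta group.

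Most Notch genes fell. Of 15 tested, 11 were lower and none higher (median -1.45). The ligand gene Jag1 had 4.94, 8.83, 11.8 and 11.4 CPM against 78.9, 95.1, 55.6 and 90.9 CPM (-3.15, SE 0.25, adjusted p = 2.47e-07), the receptor gene Notch3 fell by 1.45 (SE 0.37), Notch1 fell by 1.39 (SE 0.20), and the target Hes1 had 5.15, 6.3, 7.22 and 6.19 CPM against 35.9, 54.4, 29.8 and 39.5 CPM (-2.67, SE 0.17, adjusted p = 3.75e-08). Hey1 (-4.86, SE 0.46) and Nrarp (-3.25, SE 0.51) are further targets that fell. Jag1 averaged 14.4 CPM in control medium and 10.2 CPM in CM. Over the Notch list the median log2 fold change of CM minus TGF-beta was -0.79. Of 20 WNT genes 9 were lower and 1 higher (median -1.20), where 44.0% of all genes were called. With the replicate number as a block 5 were higher (median -0.77), and 5 without the libraries labelled PSC4 replicate 1 (median -0.80). Wnt11 (-5.52, SE 0.35) and Lef1 (-2.49, SE 0.29) fell, and the antagonist Dkk1 was called higher with 1 neratinib library at 1.32 CPM and the other 3 at 0.043, 0.043 and 0 CPM; without that library, PSC4 replicate 2, its log2 fold change was 1.85, adjusted p = 0.543. Its call was also lost without PSC5 replicate 1 of the neratinib group and without any 1 of the 4 TGF-beta libraries (adjusted p from 0.0552 up). Of 23 mesenchymal transcription factors 8 were lower and 3 higher, a share near the 44.0% called over all genes. With the replicate number as a block 5 were higher. Scx (-3.87, SE 0.31) and Gli1 (-4.67, SE 0.55) fell and Prrx1 (1.28, SE 0.12) rose.

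Secreted growth factors moved in both directions. Of 32 tested, 9 were higher and 11 lower, where 23.1% of all genes were higher and 20.9% lower. The ligands of the epithelial FGF receptor rose: Fgf10 had 29.5, 40.3, 37.8 and 27.1 CPM against 0.902, 0.578, 0.688 and 0.285 CPM (5.77, SE 0.28, adjusted p = 3.17e-09) and Fgf7 169, 150.4, 242 and 144 CPM against 17, 21.5, 12.3 and 10.5 CPM (3.53, SE 0.23, adjusted p = 4.38e-08). Neither overlapped, and both were closely spread within each group. Among PDGF genes Pdgfb (-4.42, SE 0.36), Pdgfc (-2.55, SE 0.23) and Pdgfa (-1.42, SE 0.13) fell, and Pdgfd (0.93, SE 0.42) was not called. Among VEGF genes Vegfc (-1.88, SE 0.22) and Vegfa (-0.64, SE 0.15) fell, Vegfb (0.68, SE 0.12) rose and Vegfd (0.52, SE 0.35) was not called. Without PSC4 replicate 1 of the neratinib group Pdgfd (1.12, adjusted p = 0.0492) and Vegfd (0.80, adjusted p = 0.0486) were called higher, as was Pdgfd without PSC5 replicate 1 of the TGF-beta group (1.47, adjusted p = 0.00976). Fgf2 fell (-2.32, SE 0.37). Angptl4, a lipase inhibitor, rose by 2.99 (SE 0.25) and the neurotrophic factor Gdnf by 2.84 (SE 0.34). Hgf (0.95, SE 0.39) and Igf1 (-0.054, SE 0.78) were not called, and each had its lowest neratinib value in PSC4 replicate 1. Hgf was called higher without that library (1.31, adjusted p = 0.000375), without PSC5 replicate 2 of the neratinib group (1.09, adjusted p = 0.0497) and with the replicate number as a block (1.04, adjusted p = 0.0206).

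Of 15 acute phase genes 11 were tested, and these 11 were higher in the neratinib group, with a median log2 fold change of 4.51. Beside the leading genes, Ptx3, a soluble pattern recognition protein, had 268, 381, 425 and 264 CPM against 16.2, 18.3, 22 and 3.74 CPM (4.51, SE 0.43, adjusted p = 1.48e-06). Serpina3n, a serine protease inhibitor, rose by 4.00 (SE 0.95, adjusted p = 0.00326), and its TGF-beta values were uneven (138, 117, 19.7 and 1.63 CPM). Of 13 complement genes 8 were higher and 1 lower (median 2.36). Cfb (4.35, SE 0.91), C4b (3.83, SE 0.79) and C1s1 (3.57, SE 0.44) rose. In the neratinib group Cfb was 9.41, 84.7, 159 and 19.9 CPM, lowest in PSC4 replicate 1, whose value lay close to the highest TGF-beta library (7.14, 2.56, 3.78 and 0.203 CPM).

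Epithelial transcripts were higher in part of the neratinib libraries. The summed level of 24 epithelial genes was 12.8, 164, 58.8 and 360 CPM in the neratinib libraries and 17.6 to 23.8 CPM in the TGF-beta libraries. It was 24.4 to 202 CPM in CM and 19.6 to 30.2 CPM in control medium. In both lines the neratinib library in T6 medium was above that in T8 medium. The CM libraries were split likewise, with 202 (PSC4) and 169 CPM (PSC5) in T6 against 24.4 and 49.7 CPM in T8. Medium code and replicate number cannot be told apart here. Of 21 epithelial genes tested, 17 were called higher (median 4.00), where 23.1% of all genes were. The groups overlapped in all but 4 of them, where 30.0% of all genes did not overlap. Without the T6 libraries 2 of 21 were called. The keratin gene Krt8 had 0, 37.8, 9.47 and 94 CPM in the neratinib libraries, none in PSC4 replicate 1, and 1 of the 24 genes was at 0 throughout the neratinib group. In PSC4 replicate 1, where the epithelial sum was below that of every TGF-beta library, Saa3 was at 2169 CPM, Lcn2 at 152 CPM, Csf3 at 27.6 CPM and Cxcl1 at 144 CPM. PSC5 replicate 2, which had the highest sum, was the lowest neratinib library for Saa3, Lcn2 and Csf3. The part of epithelial cells in the other rises was not tested, and in bulk RNA more cells of a type and more RNA per cell cannot be told apart. Leukocyte markers summed to 35.9 to 68.3 CPM in the neratinib group and 8.04 to 9.20 CPM in the TGF-beta group, with 4 of the 12 genes at 0 in the neratinib group. Most of that sum was Cd14, which averaged 49.4 CPM against 4.67 CPM. Of the 4 leukocyte genes tested, Cd14 was called higher (3.40, SE 0.25) and Fcer1g lower (-1.95, SE 0.53), where 44.0% of all genes were called.

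**Figure D3:**
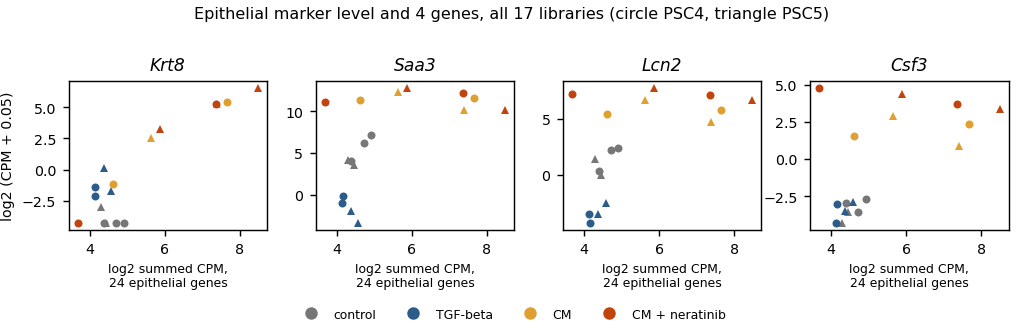
Level of Krt8, Saa3, Lcn2 and Csf3 as log2 (CPM + 0.05) on the y axes against the log2 summed CPM of 24 epithelial genes on the x axes, for all 17 libraries (circles PSC4, triangles PSC5, colours the 4 groups). The neratinib library with the lowest epithelial sum (12.8 CPM) has no Krt8 and has Saa3 at 2169 CPM and Lcn2 at 152 CPM.

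Most cytokine genes and their feedback genes rose. Of 14 genes of the IL-6 family and its STAT3 feedback, 11 were higher and 1 lower (median 0.74), or 7 higher with only the compared groups in the model. Il6 had 48.5, 31.9, 51.6 and 19.2 CPM against 3.72, 5.13, 2.28 and 2.56 CPM (3.48, SE 0.45, adjusted p = 2.42e-05), and it was also higher than in CM alone, which averaged 10.6 ± 6.3 CPM (SD, n = 4; log2 fold change 1.82, SE 0.41, adjusted p = 0.00717). The leukaemia inhibitory factor gene Lif rose by 1.28 (SE 0.44, adjusted p = 0.029) with an overlap, since PSC4 replicate 2 had only 14.9 CPM. The call for Lif was lost without PSC4 replicate 1 (0.70, adjusted p = 0.148) or PSC5 replicate 1 (1.26, adjusted p = 0.0538) of the neratinib group, and without PSC4 replicate 2 (1.10, adjusted p = 0.0921) or PSC4 replicate 3 (1.16, adjusted p = 0.0851) of the TGF-beta group. The feedback inhibitor Socs3 (1.62, SE 0.20) and the receptor genes Osmr (1.83, SE 0.23) and Lifr (2.54, SE 0.31) rose. Il11, the member induced by TGF-beta in many fibroblasts, was the one that fell, with 1.75, 0.545, 0.908 and 0.916 CPM against 2.07, 2.82, 3.05 and 3.74 CPM (-1.44, SE 0.39, adjusted p = 0.00795).

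Of 10 genes of the IL-1 family and colony-stimulating factors, 7 were higher and none lower (median 1.41). The interleukin Il33 (1.79, SE 0.60), the receptor Il1r1 (1.51, SE 0.27) and Csf1 (0.94, SE 0.12) were among them. Il1a was found at 0.213, 0.545, 2.12 and 1.24 CPM in the neratinib libraries and at 0 counts in every TGF-beta and control library. Of 19 chemokines 10 were higher and 2 lower (median 0.48). Ccl2, which attracts monocytes, had 274, 249.7, 394 and 183 CPM against 19.6, 20.2, 26 and 17.9 CPM (3.72, SE 0.22, adjusted p = 2.47e-08), and Ccl7 rose by 2.75 (SE 0.23). Cx3cl1 (-2.04, SE 0.40) and Cxcl9 (-2.29, SE 0.80) fell, and Cxcl12, which was abundant in all groups, was not called: it had 385, 2301, 1733 and 902 CPM against 1378, 1467, 1058 and 572 CPM (0.31, SE 0.40, adjusted p = 0.558). Cxcl12 was called higher without PSC4 replicate 1 of the neratinib group (0.66, adjusted p = 0.0464). The call for Il33 was lost without PSC4 replicate 2 or PSC5 replicate 1 of the neratinib group or PSC4 replicate 2, PSC4 replicate 3 or PSC5 replicate 2 of the TGF-beta group (adjusted p 0.0521 to 0.0842). That for Cxcl9 was lost without PSC4 replicate 1, PSC4 replicate 2 or PSC5 replicate 2 of the neratinib group or either PSC4 library of the TGF-beta group (adjusted p 0.0673 to 0.0864). Csf3 (2.04, SE 0.43, adjusted p = 0.00506) and Lcn2 (1.43, SE 0.43, adjusted p = 0.0311) were also higher than in CM. Cxcl1 (0.66, SE 0.40, adjusted p = 0.266) and Saa3 (0.38, SE 0.71, adjusted p = 0.75) were not called against CM. In the chemokine list 5 genes were called against CM, all 5 lower (median -0.56). CM lay above TGF-beta by a median of 1.80 over that list and 4.35 over the acute phase list. The acute phase, complement, IL-6 and IL-1 lists each had 1 gene called higher and 1 lower than in CM.

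NF-kB subunits and feedback genes were higher in 12 of 16 cases, lower in none (median 0.86). Against CM 3 of them were called, all 3 lower (median -0.24), and CM lay above TGF-beta by a median of 1.30. Nfkbia, the inhibitor that NF-kB induces, had 85, 84.5, 109 and 68.7 CPM against 30.7, 31.3, 32.8 and 27.1 CPM (1.51, SE 0.12, adjusted p = 2.94e-07), and Bcl3 rose by 2.28 (SE 0.19). Of 14 prostaglandin genes 8 were higher and 2 lower, where 23.1% of all genes were higher and 20.9% lower. The cyclooxygenase gene Ptgs2 (1.87, SE 0.33), the prostaglandin E synthase gene Ptges (2.54, SE 0.34) and the prostacyclin receptor gene Ptgir (3.11, SE 0.27) rose, while Hpgd, which degrades prostaglandins, fell (-2.24, SE 0.47).

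**Figure D4:**
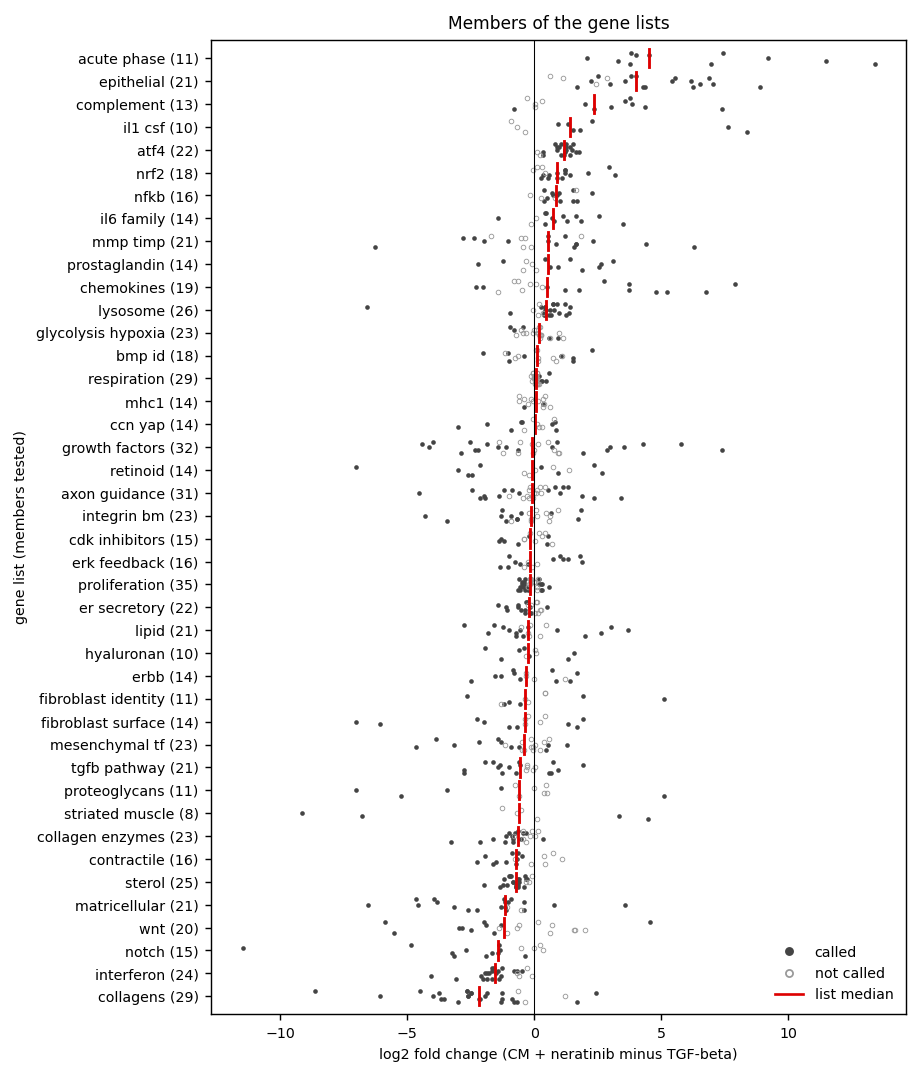
Log2 fold change of the neratinib group minus the TGF-beta group (x axis) for the members of each gene list with at least 8 members tested (y axis, number tested in brackets). Filled points are called genes, open points are not called, and the red line is the list's median, from 4.51 for the acute phase list to -2.19 for the collagens.

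Most interferon-stimulated genes fell. Of 24 tested, 20 were lower in the neratinib group and none higher (median -1.56). Ifit1, an RNA-binding antiviral protein, had 13.3, 24.7, 71.1 and 35.3 CPM against 174, 108, 107 and 97.1 CPM (-1.86, SE 0.38, adjusted p = 0.00107). Isg15, the ubiquitin-like modifier, had 20.3, 22.6, 101 and 64.7 CPM against 218, 174, 216 and 179 CPM (-2.11, SE 0.36, adjusted p = 0.000256). Within the neratinib group PSC4 replicate 1 and PSC4 replicate 2 were lower than both PSC5 libraries for Ifit1 and Isg15. Against CM all 24 were lower, with a median of -2.12, and 2850 genes, 20.5% of those tested, were called in that comparison (4563 with the replicate number as a block). CM stood above TGF-beta by a median of 0.57 over the same list. Ifit3 illustrates the levels: it averaged 105 ± 38.3 CPM in control medium (SD, n = 5), 114 ± 52.8 with TGF-beta, 156 ± 52.6 in CM and 14.8 ± 12.4 with neratinib (each SD, n = 4). Without the T6 neratinib libraries 9 of the 24 were called lower than with TGF-beta, with a median of -1.32. The response-element letters were in 10 of 18 promoters found for this list, against 3.04% of all promoters.

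Genes of MHC class I presentation were lower than in CM, and few were called against TGF-beta. Of 14 tested, 1 was higher and 1 lower than with TGF-beta (median 0.059), and 12 were called against CM, all 12 lower. H2-K1, a class I heavy chain, had 146, 334, 548 and 248 CPM against 257, 182, 309 and 238 CPM with TGF-beta (0.36, SE 0.28, adjusted p = 0.327) and averaged 806 ± 185 CPM in CM (SD, n = 4; -1.37, SE 0.29, adjusted p = 0.00502). Without the libraries labelled PSC4 replicate 1, 7 of the 14 were called higher than with TGF-beta, and with the replicate number as a block 3 were higher and 2 lower.

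Most genes of amino acid supply under ATF4, a transcription factor of the integrated stress response, rose. Of 22 tested, 20 were higher and none lower (median 1.18). Asns, asparagine synthetase, had 441, 315, 298 and 413 CPM against 174, 169.7, 152 and 207 CPM (1.06, SE 0.16, adjusted p = 7.68e-05), and Trib3, a pseudokinase induced by ATF4, had 176, 104, 104 and 163 CPM against 38.1, 37.6, 41.6 and 47.6 CPM (1.74, SE 0.21, adjusted p = 1.28e-05). Chac1 (1.49, SE 0.19), Psat1 (0.90, SE 0.15) and Atf4 itself (1.24, SE 0.12) rose too. Against CM 21 of the 22 were higher, and CM lay below TGF-beta by a median of -0.41 over the list. PSC4 replicate 1 and PSC5 replicate 2 were the highest neratinib libraries for Asns, Trib3 and Psat1. The 2 genes not called against TGF-beta, Ddit4 and Aldh18a1, were both higher than in CM, by 0.96 (SE 0.12, adjusted p = 0.000226) and 0.98 (SE 0.072, adjusted p = 3.01e-06).

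Antioxidant genes controlled by NRF2 rose as well, 14 of 18 tested and none lower (median 0.90), and 14 were higher than in CM. Hmox1, haem oxygenase 1, had 1565, 554, 335 and 856 CPM against 94.3, 99, 84 and 83.6 CPM (3.16, SE 0.31, adjusted p = 1.97e-06), with PSC4 replicate 1 the highest and PSC5 replicate 1 the lowest neratinib library. The ferritin gene Fth1 had 3786, 4166, 3345 and 3387 CPM against 1081, 943, 713 and 732 CPM (2.09, SE 0.14, adjusted p = 6.67e-08). Nqo1, a quinone reductase, was called (0.89, SE 0.29, adjusted p = 0.0221) although the groups overlapped: it had 53.6, 19.7, 19.9 and 53.6 CPM against 21.1, 23.2, 14.7 and 20.3 CPM. The call for Nqo1 was lost without PSC4 replicate 1 (0.60, adjusted p = 0.108) or PSC5 replicate 2 (0.61, adjusted p = 0.103) of the neratinib group or PSC5 replicate 1 of the TGF-beta group (0.76, adjusted p = 0.0708). Gclm (1.20, SE 0.11) and Txnrd1 (1.21, SE 0.21) rose without overlap. Of 26 lysosomal genes 20 were higher and 2 lower (median 0.44), among them the cathepsin genes Ctsl (1.25, SE 0.11) and Ctsb (0.89, SE 0.10), and Atp6v0d2 was one of the 2 lower genes, at the floor in the neratinib group (at least 28.1-fold lower).

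Sterol synthesis genes were lower in 22 of 25 cases and higher in none (median -0.72). Hmgcs1, which starts the mevalonate pathway, had 172, 173, 167 and 104 CPM against 403, 515, 325 and 339.8 CPM (-1.35, SE 0.13, adjusted p = 1.44e-06). Control cells were the lowest of the groups for Hmgcs1 (120.0 ± 13.2 CPM, SD, n = 5), and 20 of the 25 genes were lower than in CM. Of 21 lipid genes 10 were lower and 5 higher, where 20.9% of all genes were lower and 23.1% higher. The desaturase genes Scd1 (-1.81, SE 0.13) and Scd2 (-1.60, SE 0.10) fell, while the lipid droplet coat gene Plin2 (0.89, SE 0.23), Fabp4 (3.69, SE 0.62) and the lipase gene Lpl (3.02, SE 0.49) rose.

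**Figure D5:**
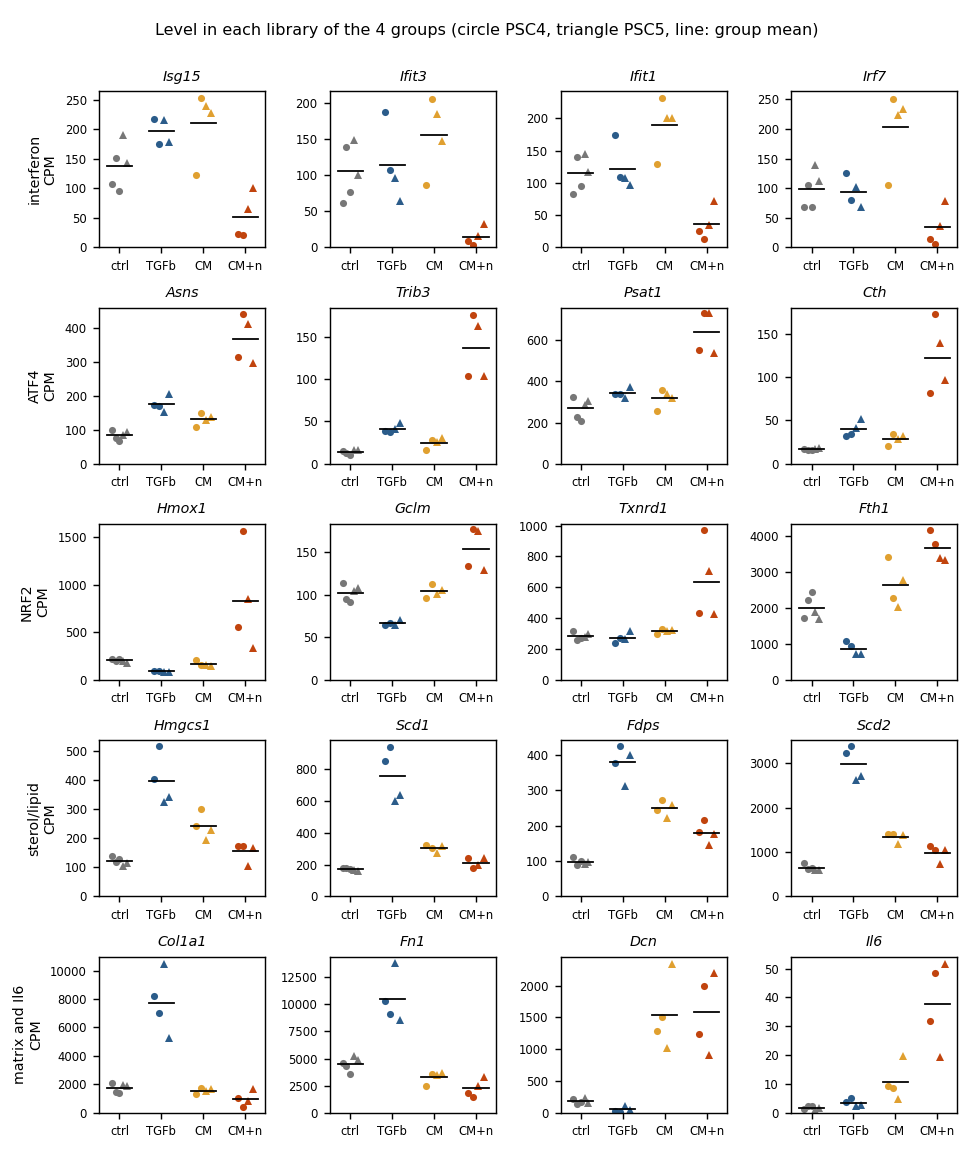
Level in CPM (y axes, from 0) of 20 genes in each library of the control (ctrl), TGF-beta (TGFb), CM and neratinib (CM+n) groups; circles are PSC4, triangles PSC5 and lines group means. The interferon genes are lowest with neratinib (Isg15 20.3 to 101 CPM), the ATF4 genes highest with neratinib (Asns 298 to 441 CPM), and Dcn is high in both CM groups.

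Genes of the ERBB family, the targets of neratinib, were not uniform. Of 14 tested, 4 were higher and 6 lower (median -0.31), where 23.1% of all genes were higher and 20.9% lower. Egfr had 245, 251, 397 and 272 CPM against 82.8, 85.7, 161 and 124 CPM (1.39, SE 0.19, adjusted p = 5.21e-05), and the ligand gene Ereg, epiregulin, 93, 59.9, 89.1 and 61 CPM against 19.5, 27.1, 22.2 and 25.3 CPM (1.69, SE 0.21, adjusted p = 2.32e-05). The ligand genes Areg, amphiregulin (-1.33, SE 0.34, adjusted p = 0.00564), and Hbegf, heparin-binding EGF (-2.48, SE 0.29, adjusted p = 1.25e-05), fell. Erbb2 was not called (50.0, 59.7, 69.9 and 56.3 CPM against 56.8, 55, 69.4 and 59.9 CPM, -0.032, SE 0.089, adjusted p = 0.797). Errfi1, a feedback inhibitor of these receptors, was lower than with TGF-beta (-0.58, SE 0.13) and than in CM (-1.19, SE 0.13, adjusted p = 8.08e-05). Of 16 ERK targets and feedback genes 6 were higher and 6 lower, where 44.0% of all genes were called. Phlda1 (1.33, SE 0.22) and Ier3 (1.81, SE 0.26) rose, and Spry4 (-0.55, SE 0.16) and Dusp5 (-1.34, SE 0.31) fell. Dusp6 (-0.11, SE 0.15, adjusted p = 0.573) and Etv4 (-0.24, SE 0.17, adjusted p = 0.272) were not called. Etv4 was called lower with the replicate number as a block (-0.41, adjusted p = 0.00173) and without PSC4 replicate 1 of the neratinib group (-0.41, adjusted p = 0.0463).

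Cell cycle genes changed by small amounts. Of 35 tested, 7 were higher and 14 lower (median -0.18), where 23.1% of all genes were higher and 20.9% lower. None changed by 1 or more on the log2 scale. Mki67, a marker of cycling cells, had 378, 403, 405 and 326 CPM against 697, 665, 537 and 495 CPM (-0.65, SE 0.11, adjusted p = 0.000171), and Plk1 (-0.60, SE 0.074) and Top2a (-0.30, SE 0.07) fell. The replication genes Mcm2 (0.29, SE 0.058), Pcna (0.32, SE 0.069) and Cdt1 (0.57, SE 0.085) rose. Ccnb1 (-0.14, SE 0.095) and Cdk1 (-0.12, SE 0.064) were not called. Both were called lower without PSC4 replicate 1 of the neratinib group (-0.27, adjusted p = 0.0052 and -0.18, adjusted p = 0.0252). Of 23 glycolysis and hypoxia genes 5 were called and of 29 respiratory chain genes 5, where 44.0% of all genes were. With the replicate number as a block 3 glycolysis and hypoxia genes were higher and 6 lower.

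The change was also fitted in each line. The neratinib group differed from the TGF-beta group in 4223 genes in PSC4 and 2812 in PSC5. A test of the difference between the lines called 1 gene, 0.00718% of those tested, and 951 genes had an unadjusted p under 0.05. That gene was Fbln5, a protein of elastic fibres, with a log2 fold change of -1.71 in PSC4 and 0.050 in PSC5 and a difference of 1.76 (SE 0.21, adjusted p = 0.0334). Its values were 80.7, 86.1, 91.4 and 82.1 CPM in the neratinib group and 241, 305, 84.7 and 83.5 CPM in the TGF-beta group, where both PSC4 libraries were high. The count for this test moved with single libraries: without PSC4 replicate 2 of the neratinib group 519 genes were called, and without the libraries labelled PSC4 replicate 1 of all groups 0 genes. DESeq2 on all libraries called 69. The library labelled PSC4 replicate 1 lay with PSC5, so differences between the lines are described no further.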

How the data were processed

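RNA sequencing measured 17 libraries of mouse pancreatic stellate cells, 8 of which form the comparison described here. The values used are expected counts per gene, deposited by the authors for each library; per the submitters' processing notes these involved Salmon 1.4.0, DESeq 2 and GRCm38 (mm10), and the role of DESeq 2 is not given in the sources used here. Of the values above 0, 74.8% were not whole, and rounding to whole numbers shifted the totals by up to 308 counts. Totals ranged from 22168953 to 29421447, and gene identifiers without a symbol (459 of 35896) were kept in the fit.

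The counts were fitted with edgeR 4.0.16 (limma 3.58.1, R 4.3.3) by the quasi-likelihood test on all 17 libraries, with group and cell line as terms, TMM factors and filterByExpr (minimum count 10), which left 13923 genes and 12 residual degrees of freedom. P-values were adjusted over all genes by the Benjamini-Hochberg method. Before use the procedure was run on simulated data with the same dispersion for every gene and no cell line effect. That run does not cover uneven libraries. Levels of 3 counts or fewer in every library of a group were treated as a floor, and folds against it are lower bounds. Counting error alone limits low values.

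The genes named are the 12 largest rises and 12 largest falls among called genes with at least 10 CPM on average in the higher group and no overlap within either line, leaving out predicted genes with Gm or Rik names; the first 4 symbols of each list; and list members called against most of their list. Further genes of the lists are named as examples, chosen after their values were seen. Some list members that the rule names are not reported here. The members and lists were chosen with earlier results of these data known. Libraries sharing a line and number share a passage per the labels, and their deviations from the group means correlated (r = 0.479, 0.214 and 0.186 across genes). All 3 were over 0.1, but this cannot tell pairing from a shared cell line. The fit reported used the cell line and no pairing, and the replicate block was run as an alternative. Some pairs with other numbers correlated as much: 0.469 for PSC4 replicate 2 with PSC4 replicate 3, and 0.363 for PSC4 replicate 1 with PSC5 replicate 2. Alternatives were RLE and upper-quartile factors, DESeq2 1.42.0, no filter, only the groups compared, a replicate block, no line term, other treatments of the libraries labelled PSC4 replicate 1, a threshold of 0.01, each library left out, and, chosen after seeing the data, the neratinib libraries in T6 medium left out.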

Additional observations from a re-analysis of the deposited data

Results flagged for a closer look

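Among the genes named, 366 sets of 4 libraries of a group, each reaching at least 1 CPM, were examined for a library far from the other 3 (gap over range above Dixon's 95% critical value). Of these, 21 (5.74%) held one, where chance alone would give about 18.3 sets. In PSC4 replicate 1 of the neratinib group these were Ccnb1 at 165 CPM (the other 3 libraries 112 to 117 CPM), Cdk1 at 192 CPM (the other 3 libraries 162 to 166 CPM), Ier3 at 316 CPM (the other 3 libraries 126 to 155 CPM) and Notch1 at 12 CPM (the other 3 libraries 21.6 to 23.5 CPM). In PSC4 replicate 2 of the neratinib group these were Dkk1 at 1.32 CPM (the other 3 libraries 0 to 0.0432 CPM) and Pdgfa at 18.4 CPM (the other 3 libraries 23.9 to 24.6 CPM). In PSC5 replicate 1 of the neratinib group these were Cxcl5 at 304 CPM (the other 3 libraries 79.2 to 89.5 CPM) and Vegfc at 25 CPM (the other 3 libraries 11.8 to 13.4 CPM). In PSC5 replicate 2 of the neratinib group this was Hmgcs1 at 104 CPM (the other 3 libraries 167 to 173 CPM). In PSC4 replicate 2 of the TGF-beta group these were Dusp6 at 47.8 CPM (the other 3 libraries 63.6 to 65.3 CPM), Ifit1 at 174 CPM (the other 3 libraries 97.1 to 108 CPM) and Ptgs2 at 46.9 CPM (the other 3 libraries 71.4 to 74.5 CPM). In PSC5 replicate 1 of the TGF-beta group these were Aldh18a1 at 265 CPM (the other 3 libraries 258 to 259 CPM), Col5a1 at 1369 CPM (the other 3 libraries 726 to 829 CPM), Fabp4 at 2.24 CPM (the other 3 libraries 0.163 to 0.413 CPM) and Ptges at 7.74 CPM (the other 3 libraries 1.3 to 2.25 CPM). In PSC5 replicate 2 of the TGF-beta group these were Ctsw at 39.8 CPM (the other 3 libraries 23.4 to 24.6 CPM), Igf1 at 2.48 CPM (the other 3 libraries 11.2 to 12.4 CPM), Postn at 1126 CPM (the other 3 libraries 2410.4 to 2581 CPM), Tnnt2 at 38.6 CPM (the other 3 libraries 30.1 to 31.3 CPM) and Wnt11 at 12.4 CPM (the other 3 libraries 6.32 to 7.09 CPM).

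The change from TGF-beta to neratinib differed between the cell lines for Fbln5 in the test of the difference itself, with a log2 difference of 1.76 for PSC5 minus PSC4 (SE 0.21, adjusted p = 0.0334 by edgeR's quasi-likelihood test).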

How the results depend on the processing

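The count of genes that differed between neratinib and TGF-beta (6123) kept within 1.5 times under every alternative run, from 4092 with only the 2 groups in the model to 7074 when PSC5 took in the libraries labelled PSC4 replicate 1. With the replicate block it was 7016, and leaving out single libraries gave 5323 to 6225. The count against conditioned medium (2850) depended more on the setting: it was 602 with only the groups compared in the model, 1207 at an adjusted p under 0.01 and 4563 with the replicate block, and leaving out single libraries gave 1748 to 3685. The count for the difference between the lines (1) was 69 with DESeq2, 0 without the libraries labelled PSC4 replicate 1 and 0 at an adjusted p under 0.01, and leaving out single libraries gave 0 to 519. The cause of these shifts was not tested.

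The genes whose fold change crossed 0 were not called in the fit reported, and none was called in the crossed direction. Cxcl12 was -0.017 to 0.66 when single libraries were left out. Des was -0.0043 with the replicate block. Erbb2 was 0.015 with libraries labelled PSC4 replicate 1 removed, -0.099 to 0.021 when single libraries were left out. H2-K1 was -0.013 to 0.60 when single libraries were left out. Igf1 was 0.083 with no cell line term, 0.25 with libraries labelled PSC4 replicate 1 removed, 0.33 with neratinib libraries in medium T6 removed, -1.14 to 0.42 when single libraries were left out. Mylk was -0.027 with neratinib libraries in medium T6 removed. Smad4 was -0.016 with the replicate block, -0.0090 when PSC5 took in the PSC4 replicate 1 libraries, -0.0075 with libraries labelled PSC4 replicate 1 removed, -0.0021 to 0.044 when single libraries were left out. Of 204 named genes, 170 kept their direction and side of the threshold under every alternative run. Among others, Acta1, Areg, Il11, Krt8 and Vegfa lost their call without the T6 neratinib libraries (adjusted p from 0.0524 to 0.364). That setting left fewer neratinib libraries, all replicate 1 in T8 medium, and the T8 libraries were not left out together. Fst, Ly6c1, Plin2, Spry4 and Crtap were among those that lost their call with only the groups compared in the model. The replicate block changed the call of Hgf and Etv4 among the named genes and of no other. With only the groups compared in the model, fewer were called higher among ERBB genes (2 of 14), respiratory chain genes (2 of 29) and epithelial genes (4 of the 10 then tested), and fewer lower among ERK targets (3 of 16) and endothelial markers (2 of the 4 then tested). Without the T6 neratinib libraries 2 of 15 ERBB genes and 3 respiratory chain genes were higher, 4 of 15 prostaglandin genes were lower, and 0 glycolysis genes were lower. Depth limits genes near 3 counts, where folds are bounds.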
